A study of Homo sapiens with 6 samples.

Results

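The genes described here are 10 chaperones and regulators of the endoplasmic reticulum (ER), the compartment in which secreted and membrane proteins fold. They are HSPA5, HSP90B1, PDIA3, PDIA4, PDIA6, DNAJB9, DNAJC3, HERPUD1, XBP1 and SDF2L1. They were chosen by symbol, each matched 1 row of the count table, and they make up 10 of its 19672 genes. All 10 passed the low-count filter, which kept 13299 genes. The cells were SW620, an established line from a human colorectal cancer, and every library came from cells that carried a lentiviral shRNA vector and were kept under puromycin with no other treatment. Control cells, called scramble, expressed a hairpin without a target, and a pair of knockdown lines, C3 and C6, expressed hairpins against DKC1, the pseudouridine synthase of the H/ACA ribonucleoprotein. Each group had 2 libraries of poly(A) RNA, described as biological replicates. The sources used here do not say whether they came from separate cultures, so p-values measure only the spread between these libraries, which may be technical. Nor do they say whether C3 and C6 are single clones, or which hairpin each carries. The genotype tag of the library titled C3 replicate 1 reads control, and the library was placed in C3 by its title.

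When unfolded proteins accumulate in the ER, the sensors IRE1 (gene ERN1), PERK (gene EIF2AK3) and ATF6 start the unfolded protein response (UPR). IRE1 splices the XBP1 mRNA into the form that encodes an active transcription factor, and XBP1 and cleaved ATF6 raise the transcription of ER chaperones, folding enzymes and factors that dispose of misfolded proteins. PERK slows translation and favours that of ATF4. HSPA5, also called BiP, is the most widely used readout of this response, and in the intestine XBP1 is known for its role in secretory epithelial cells such as Paneth cells. Gene counts do not separate the spliced from the unspliced form of XBP1, so the activity of IRE1 was not measured here.

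The promoter sequences were searched for exact matches to the classic ER stress response element. They are printed for the 4 genes that were called in the comparisons below and for HSPA5 as the reference target. Of the 10 genes, 9 had entries among the RefSeq promoters of GRCh38.p14, and PDIA3 had none. Each window holds the 250 bases before the annotated start, read 5′ to 3′ on the strand of the gene. XBP1 lies at chr22:28800570-28800819 (minus strand), HSPA5 at chr9:125241344-125241593 (minus strand), PDIA4 at chr7:149028491-149028740 (minus strand), DNAJB9 at chr7:108569624-108569873 (plus strand) and DNAJC3 at chr13:95676889-95677138 (plus strand). Capitals mark each CCAAT box, on either strand, and each exact match to the whole ER stress response element.
XBP1: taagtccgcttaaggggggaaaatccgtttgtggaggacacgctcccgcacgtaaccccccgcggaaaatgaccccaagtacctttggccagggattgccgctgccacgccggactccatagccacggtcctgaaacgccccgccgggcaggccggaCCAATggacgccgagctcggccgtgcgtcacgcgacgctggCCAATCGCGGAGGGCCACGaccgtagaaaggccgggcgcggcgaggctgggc
HSPA5: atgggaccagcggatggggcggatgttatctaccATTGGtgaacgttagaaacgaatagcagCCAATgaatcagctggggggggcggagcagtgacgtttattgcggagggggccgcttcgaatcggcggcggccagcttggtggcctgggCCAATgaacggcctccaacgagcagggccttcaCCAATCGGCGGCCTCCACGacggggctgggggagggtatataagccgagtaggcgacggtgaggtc
PDIA4: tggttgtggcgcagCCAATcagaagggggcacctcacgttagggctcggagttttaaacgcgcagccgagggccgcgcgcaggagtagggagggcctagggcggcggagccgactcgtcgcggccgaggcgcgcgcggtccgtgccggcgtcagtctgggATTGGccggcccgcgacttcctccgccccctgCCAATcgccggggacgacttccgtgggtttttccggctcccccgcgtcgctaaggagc
DNAJB9: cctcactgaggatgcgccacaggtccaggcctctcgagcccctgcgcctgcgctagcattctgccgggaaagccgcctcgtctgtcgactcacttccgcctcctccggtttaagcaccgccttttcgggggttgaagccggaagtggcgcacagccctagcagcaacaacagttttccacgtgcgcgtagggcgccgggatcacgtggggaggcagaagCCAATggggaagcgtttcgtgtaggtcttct
DNAJC3: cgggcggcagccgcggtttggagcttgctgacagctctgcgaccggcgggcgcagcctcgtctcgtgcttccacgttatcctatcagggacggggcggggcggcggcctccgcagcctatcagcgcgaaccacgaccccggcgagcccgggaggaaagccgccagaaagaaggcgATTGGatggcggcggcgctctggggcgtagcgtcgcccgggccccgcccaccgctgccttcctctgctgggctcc
The ER stress response element was searched on both strands as CCAAT, then 9 bases of any kind, then CCACG. It contains a CCAAT box, the part bound by NF-Y, while ATF6 binds the CCACG part. It was found in 4 of the 9 genes, HSPA5, HSP90B1, PDIA6 and XBP1. The 9 genes had 12 windows, and in PDIA6 the match lay in the downstream window only. Counted per window and not per gene, it was found in 26 of 35116 promoter windows of the same length (0.074%). Among windows of tested genes it was found in 17 of 15512 (0.11%). Counted from the start site, the match began at position -66 in HSPA5 and at position -52 in the upstream promoter of XBP1. HSP90B1 held 2 matches, 1 on each strand. The shorter form called ERSE-II, which is ATTGG, then 1 base of any kind, then CCACG, was found in HERPUD1 and SDF2L1 and in 18 of the 35116 windows (0.0513%). The letters TGACGTGG, a core of the UPR element, were found in 0 of the 9 genes and in 0.612% of windows. PDIA4, DNAJB9 and DNAJC3 held a CCAAT box, as 32.0% of all windows did, but none of the longer letters in these windows. Only exact letters were searched, so a gene without a match may still carry a variant copy of an element, and a gene with a match may carry more. These matches are descriptions of sequence and not of binding.

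Total counts ranged from 26077966 to 31021000 per library, and all libraries share 1 batch tag. Levels are given as CPM, counts scaled to a common library size after TMM; CPM is not scaled to gene length, so levels are compared between libraries and not between genes. A gene is said to be called when its adjusted p was under 0.05 (edgeR's quasi-likelihood test, Benjamini-Hochberg over 13299 genes). DKC1 was at 320 and 315 CPM in scramble, 144 and 149 CPM in C3, and 70.3 and 67.1 CPM in C6, so that C3 held 46.3% and C6 21.7% of the scramble level, with log2 fold changes of -1.11 (edgeR adjusted p = 4.29e-09) and -2.21 (3.46e-12). Of 10 colon epithelial markers, 9 reached 1 CPM and CDX1 was at 0. Their summed level was 8493 to 9138 CPM in scramble, 6889 to 7086 CPM in C3 and 8961 to 9068 CPM in C6, and single markers moved apart: CDH1 averaged 225, 58.1 and 183 CPM in scramble, C3 and C6, KRT19 1150, 957 and 1949 CPM, VIL1 292, 370 and 138 CPM, and EPCAM 408, 314 and 288 CPM. Of 9 markers of immune, endothelial and stromal cells, 5 (PTPRC, CD3E, CDH5, COL1A2 and COL3A1) were at 0 in all libraries. The sum of the 9 was 23.5 to 26.5 CPM in scramble, 16.6 to 17.5 CPM in C3 and 40.1 to 47.0 CPM in C6, most of it CD68 (16.0, 10.7 and 36.5 CPM on average). The part of these marker differences in the results was not tested.

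The DKC1 knockdown lines were first compared with scramble. Averaged over C3 and C6, XBP1, PDIA4 and DNAJB9 rose and DNAJC3 fell, while HSPA5, HSP90B1, PDIA3, PDIA6, HERPUD1 and SDF2L1 were not called. The 4 called genes had log2 fold changes from -0.33 to 0.37 in the mean of both lines, and the median over the 10 genes was -0.028, beside -0.005 over all genes tested. Calls were thus made for 4 of 10 genes in the mean comparison, 3 higher and 1 lower, where 32.9% of all genes tested were called (16.6% higher, 16.3% lower). In C3 the count was 3 of 10 (background 24.3%, 12.4% higher and 11.9% lower), with XBP1 and PDIA4 higher and DNAJC3 lower. In C6 it was 4 of 10 (background 46.7%, 23.8% higher and 22.8% lower), with DNAJB9 added to the genes that were higher. These shares are near those of all genes and say nothing particular about the 10 genes. C3 and C6 are set against the same scramble libraries, so their values stand side by side and are not independent. The 10 genes together summed to 5033 and 4861 CPM in scramble, 4850 and 5051 CPM in C3, and 5129 and 4831 CPM in C6, and the 3 groups overlapped. In bulk RNA, fewer cells with a transcript and less of it per cell cannot be told apart.

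**Figure D1:**
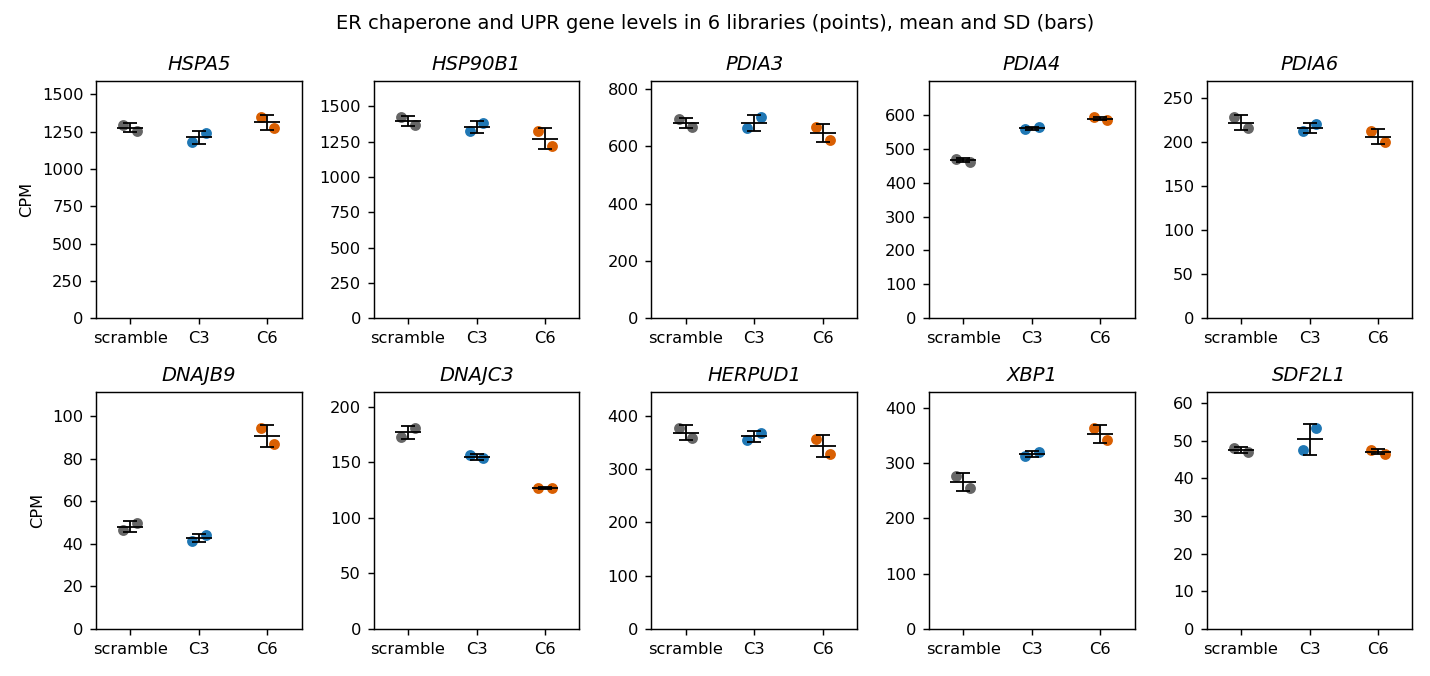
CPM of the 10 genes in each of the 6 libraries, 1 panel per gene; points are libraries, horizontal lines group means and error bars the SD (n = 2). XBP1 and PDIA4 lie above scramble in all 4 knockdown libraries, DNAJC3 lies below it in all 4, and DNAJB9 is at 94.4 and 87.0 CPM in C6 against 41.4 to 49.8 CPM elsewhere.

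HSPA5, the ER Hsp70 that binds nascent chains and holds the UPR sensors inactive, was at 1296 and 1254 CPM in scramble, 1180 and 1242 CPM in C3, and 1346 and 1275 CPM in C6. Both C3 libraries were under the scramble libraries and the C6 libraries overlapped them. The log2 fold change was -0.07 ± 0.058 (SE; edgeR adjusted p = 0.401) in C3 and 0.04 ± 0.058 (0.606) in C6. For the mean of both lines the 95% interval of the fold ran from 0.917 to 1.07. HSP90B1, the ER Hsp90 also called GRP94, was at 1422 and 1370 CPM in scramble, 1324 and 1383 CPM in C3, and 1323 and 1216 CPM in C6. C6 alone was under both scramble libraries, with a log2 fold change of -0.14 ± 0.061 that was not called (edgeR adjusted p = 0.0764). It was called with DESeq2 (adjusted p = 0.0413) and with upper-quartile scaling (edgeR adjusted p = 0.0193), and without C6 replicate 1 it was at -0.20. With the positional shift described below removed, it was at -0.06 and not called (edgeR adjusted p = 0.477). SDF2L1, a partner of BiP-bound J proteins, ranged from 46.6 to 53.4 CPM over the 6 libraries and the groups overlapped, with log2 fold changes of 0.09 in C3 and -0.01 in C6.

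J-domain proteins deliver clients to BiP and set its ATPase cycle, and 2 of them, DNAJB9 and DNAJC3, are among the 10 genes. DNAJB9, also called ERdj4, is a target of XBP1 and a repressor of IRE1. It was at 46.3 and 49.8 CPM in scramble, 41.4 and 43.9 CPM in C3, and 94.4 and 87.0 CPM in C6. C6 stood far above every other library, and both C3 libraries lay under scramble. DNAJB9 rose 1.89-fold in C6 (95% interval 1.69 to 2.11; log2 0.92 ± 0.077; edgeR adjusted p = 1.69e-07), and in C3 its log2 fold change was -0.17 ± 0.078 (0.126). DNAJC3, also called p58IPK, is a co-chaperone that restrains PERK signalling. It was at 173 and 181 CPM in scramble, 157 and 154 CPM in C3, and 127 and 127 CPM in C6. The 3 groups did not overlap, and the order was scramble, C3, C6 from high to low. DNAJC3 fell to 0.717 of scramble in C6 (95% interval 0.656 to 0.783; edgeR adjusted p = 1.08e-05) and to 0.878 in C3 (0.804 to 0.958; 0.0304). The C3 call was lost with the replicate block (adjusted p = 0.0642) and when any scramble or C3 library was left out (adjusted p 0.0563 without scramble replicate 1, 0.192 without scramble replicate 2, 0.116 without C3 replicate 1 and 0.21 without C3 replicate 2).

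Protein disulfide isomerases form and rearrange disulfide bonds, and 1 of the 3 listed rose. PDIA4, also called ERp72, was at 470 and 462 CPM in scramble, 557 and 563 CPM in C3, and 593 and 585 CPM in C6. All 4 knockdown libraries were above both scramble libraries, and libraries of a group lay within 10 CPM of each other. PDIA4 rose 1.20-fold in C3 (95% interval 1.11 to 1.30; log2 0.26 ± 0.055; edgeR adjusted p = 0.00233) and 1.26-fold in C6 (1.16 to 1.37; log2 0.34 ± 0.055; 0.000144). PDIA3, also called ERp57, which works with calnexin and calreticulin on glycoproteins, ranged from 624 to 702 CPM, with log2 fold changes of 0.00 in C3 and -0.08 in C6. PDIA6, also called P5, averaged 222 ± 8.53 CPM in scramble, 216 ± 5.68 CPM in C3 and 206 ± 8.26 CPM in C6 (SD, n = 2), with log2 fold changes of -0.04 in C3 and -0.11 in C6. Neither was called, and the 95% intervals of the fold in C6 were 0.866 to 1.03 and 0.850 to 1.01. PDIA6 was called lower in C6 with upper-quartile scaling (log2 -0.17; adjusted p = 0.0362). PDIA3 overlaps ELL3 and PDIA6 overlaps ATP6V1C2 in the annotation; these neighbours were at 2.25 to 4.5 CPM and 0.162 to 0.632 CPM on group average.

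HERPUD1 helps the degradation machinery of the ER membrane and XBP1 drives the transcriptional response. HERPUD1 was at 377 and 358 CPM in scramble, 354 and 368 CPM in C3, and 357 and 328 CPM in C6. C6 lay under scramble and C3 overlapped it, with log2 fold changes of -0.10 (edgeR adjusted p = 0.188) and -0.02 (0.818), and C6 was called lower with upper-quartile scaling (-0.16; 0.0464). XBP1 was at 277 and 255 CPM in scramble, 313 and 321 CPM in C3, and 364 and 342 CPM in C6. The 3 groups did not overlap, and C6 was highest. XBP1 rose 1.19-fold in C3 (95% interval 1.09 to 1.31; log2 0.26 ± 0.061; edgeR adjusted p = 0.00631) and 1.33-fold in C6 (1.21 to 1.45; log2 0.41 ± 0.061; 6.43e-05). The C3 call was lost without C3 replicate 2 (adjusted p = 0.069) and without scramble replicate 2 (0.0955). Genes whose 4 knockdown libraries all lay above scramble were XBP1 and PDIA4, where 15.0% of all genes tested did so, and DNAJC3 was the 1 gene with all 4 below, as were 15.2% of all genes.

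**Figure D2:**
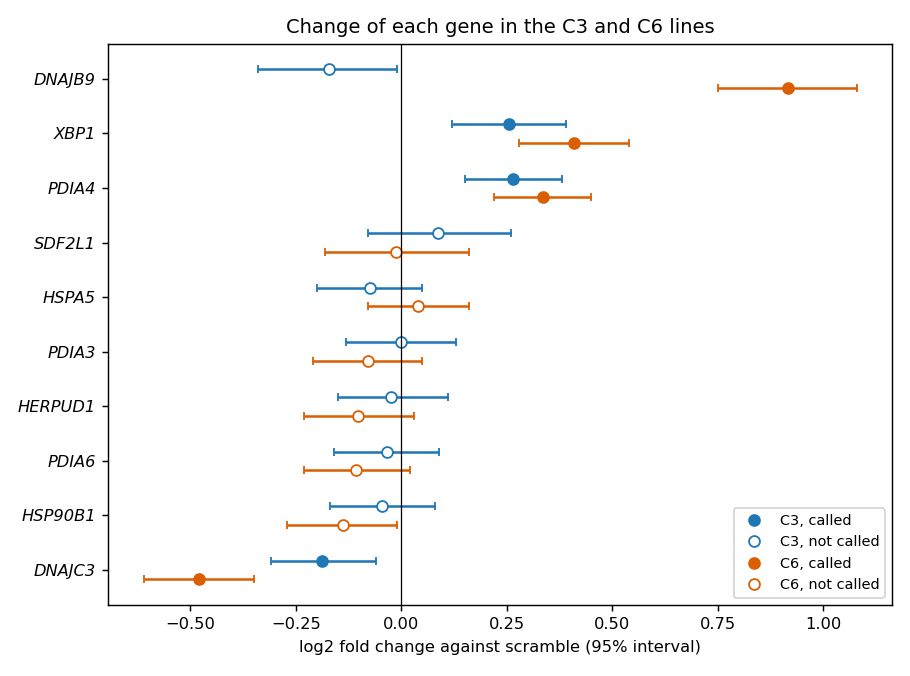
Log2 fold change with its 95% interval for the 10 genes in C3 and C6 against scramble; filled points were called. DNAJB9 in C6 (0.92) is the largest value of the 10 genes, DNAJC3 in C6 (-0.48) the lowest, and 6 of the 10 lie near 0 in both lines.

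The size of the response was then compared between the lines. In C6 against C3, 3 of 10 genes were called, 2 higher and 1 lower, where 49.2% of all genes tested were (25.1% higher, 24.1% lower), and the median of the 10 was -0.075. DNAJB9 was 2.13-fold higher in C6 than in C3 (95% interval 1.90 to 2.38; log2 1.09 ± 0.077; edgeR adjusted p = 2.26e-08). DNAJC3 was lower in C6 (log2 -0.29 ± 0.060; 0.000845). XBP1 was 1.11-fold higher (1.02 to 1.22; 0.0486), a call that was lost with the positional shift removed (adjusted p = 0.204), with upper-quartile scaling (0.107), with the replicate block (0.0787) and without C3 replicate 1 (0.228), C3 replicate 2 (0.131) or C6 replicate 1 (0.25). PDIA4 did not pass the test of this difference (log2 0.07, 95% interval -0.05 to 0.19).

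Chromosomal neighbours of the 10 genes were set beside them. For each gene the median log2 fold change of 50 tested genes was taken, 25 on each side along the chromosome, with the gene itself left out. These stretches can be wide: around DNAJC3 the starts of the neighbours ran from 71437966 to 106489745. Some genes named further below lie near a chromosome end and had fewer neighbours, such as TRIB3 with 29. Around PDIA4, at 7:149003051-149028505 (GRCh38.p14), it was 0.31 in C3 and 0.48 in C6, with 23 and 26 of the 50 neighbours called higher. PDIA4 itself was at 0.26 and 0.34, below these medians. Around DNAJC3, at 13:95677139-95794988, it was -0.04 in C3 and -0.47 in C6, where 30 of 50 neighbours were called lower, 25 lay above DNAJC3 and 25 below it. Around DNAJB9, at 7:108569874-108574850, the median was 0.48 in C6 with 31 of 50 called higher, and 6 of the 50 exceeded DNAJB9. Around XBP1, at 22:28794560-28800569, it was 0.04 in C3 and 0.12 in C6. For the 6 genes that were not called, neighbour medians lay between -0.13 and 0.14 in both lines.

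The fit was repeated with the running median of 51 genes along the chromosome, the gene included, removed as an offset. XBP1 kept its calls against scramble, with log2 fold changes of 0.19 in C3 (edgeR adjusted p = 0.0339) and 0.29 in C6 (0.00147). DNAJB9 was still called in C6 at 0.43 (0.000373), beside 0.92 before. PDIA4 turned to -0.05 in C3 (0.614) and to -0.15 in C6, where it was called lower (0.0466). DNAJC3 was at -0.14 in C3 (0.101) and, being itself the middle gene of its stretch, at 0.00 in C6. The DNA copy number of these stretches was not measured.

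**Figure D3:**
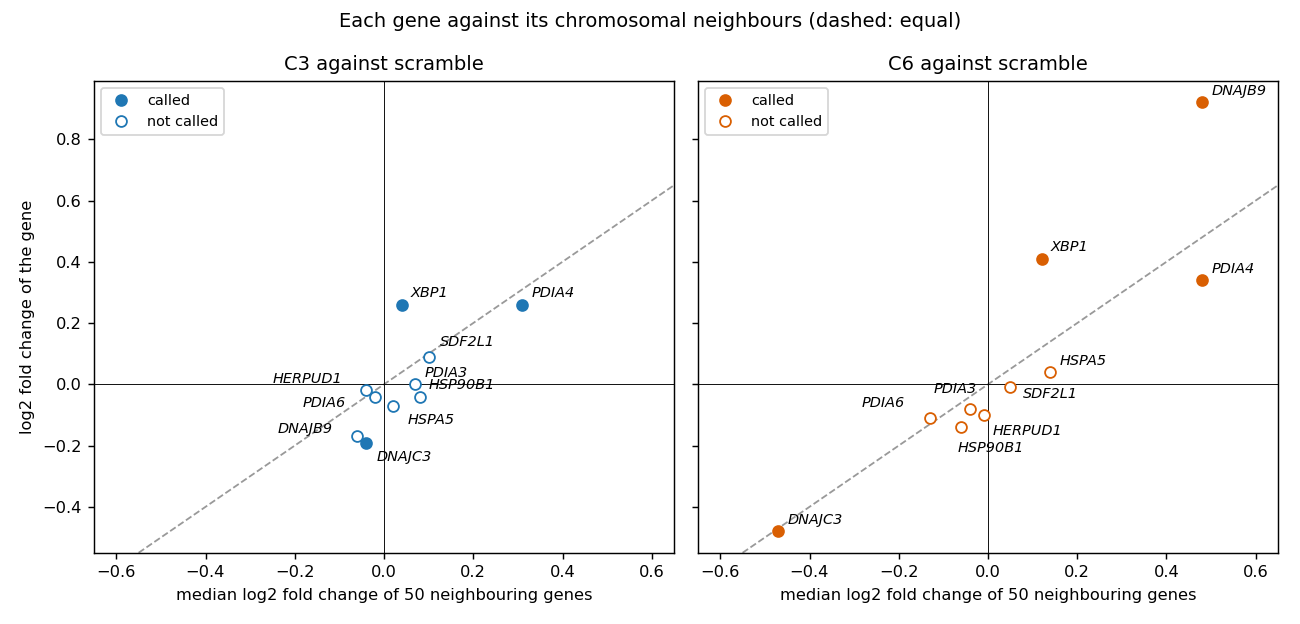
Log2 fold change of each of the 10 genes against the median of 50 flanking tested genes, for C3 and C6 against scramble. The dashed line marks equal values and filled points were called. XBP1 lies above the line in both lines, DNAJB9 lies above it in C6 (0.92 against 0.48), and DNAJC3 in C6 lies on it.

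The rest of the pathway was followed in 6 lists of ER genes, 117 of whose 119 genes were tested. In C3, 4 of the 117 were higher and 18 lower (18.8% called, background 24.3%), and in C6 33 were higher and 18 lower (43.6%, background 46.7%). Medians over the 117 genes were -0.076 in C3 and 0.065 in C6, beside 0.001 and -0.01 over all genes tested. Called higher in both lines were CREB3L2 and ERP29 and lower in both were HYOU1, DNAJC10, SPCS3 and STT3A, where 5.44% and 4.59% of all genes tested were. The same share for opposite calls was 4.93%, and here CREB3, CALR, SSR2, SRPRA and KDELR3 were called with opposite signs. These 5 genes and ERP29 were named after their values were seen.

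Of 15 sensors, proteases and effectors of the UPR, 3 rose and 1 fell in the mean of both lines (26.7% called, beside 32.9% of all genes tested). The sensors themselves were not called there: ERN1 averaged 113 CPM in scramble, 106 CPM in C3 and 129 CPM in C6 (log2 fold change of the mean 0.05), EIF2AK3 37.7, 33.3 and 41.7 CPM (-0.02), and ATF6 79.7, 74.7 and 83.3 CPM (-0.01). ATF4, the transcription factor of the PERK arm, was at 1012, 1037 and 1080 CPM (0.07). DDIT3 (CHOP), a target of ATF4, rose in C6 by log2 0.20 (edgeR adjusted p = 0.0194) and was at 0.07 in C3. PPP1R15A (GADD34), which returns the PERK signal to rest, rose in C6 by 0.39 (5e-05) and was at -0.07 in C3. TRIB3, another ATF4 target, was at 775 ± 39.1 CPM in scramble, 865 ± 52.0 CPM in C3 and 1054 ± 27.2 CPM in C6 (SD, n = 2), a rise of 0.44 in C6 where its neighbours were at 0.33; with the positional shift removed it was at 0.11 and not called. CREB3L2, an ER-anchored transcription factor, rose in both lines by 0.56 and 1.03 and kept its C6 call with that shift removed (0.55). MBTPS1, the site-1 protease that cleaves ATF6, fell in C6 by 0.76 on the log2 scale with neighbours at -0.63, and was not called with the shift removed (-0.11). CREB3L1, at 1.77 CPM or less in each group, was called in C6 at -1.40.

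Of 31 other folding factors tested, 3 rose and 6 fell in the mean of both lines (29.0% called, beside 32.9% of all genes tested). HYOU1, the Hsp110 exchange factor of BiP and itself a UPR target, was at 568 ± 18.7 CPM in scramble, 466 ± 2.33 CPM in C3 and 430 ± 23.9 CPM in C6 (SD, n = 2). It fell in C3 and C6 (log2 -0.28 and -0.40; edgeR adjusted p = 0.00244 and 5.95e-05), its neighbours were at -0.07 and 0.00, and it was still called with the shift removed. The J protein DNAJC10 fell in both lines (-0.19 and -0.77) and DNAJB11 in C6 (-0.67), with neighbours in C6 at -0.56 and -0.44. ERO1B, an oxidase that feeds disulfide isomerases, fell in C6 from 17.5 ± 0.108 to 4.97 ± 0.167 CPM (log2 -1.81; 3.04e-08), with neighbours at -0.11. Its paralogue ERO1A was at 122 to 127 CPM in the 3 groups. CALR, the lectin chaperone calreticulin, rose in C3 (0.17; 0.0424) and fell in C6 (-0.43; 1.78e-05), while its membrane partner CANX was at 1206, 1152 and 1206 CPM. FKBP14, a prolyl isomerase, rose in C6 (0.84) and UGGT2, a glycoprotein folding sensor, fell there (-0.67), with neighbours at 0.33 and -0.49. P4HB, the founding disulfide isomerase, rose in C6 (0.16; 0.0291). MANF and CRELD2, secreted UPR targets, were not called in either line, with log2 fold changes in the mean of -0.14 and -0.12.

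In ER-associated degradation, 2 of 24 genes rose and 5 fell in the mean of both lines (29.2% called, beside 32.9% of all genes tested). With upper-quartile scaling 10 of the 24 fell, and over all genes tested 2773 were then called lower and 1642 higher. EDEM1, a mannosidase-like UPR target, was at 91.2 ± 3.57 CPM in scramble and 69.6 ± 1.45 CPM in C3 (SD, n = 2), where it fell (log2 -0.39; edgeR adjusted p = 0.00103), and at 86.5 CPM in C6. SEL1L, the scaffold of the HRD1 ligase, fell in C3 (-0.22; 0.0398), while the ligase gene SYVN1 was at 106, 97.0 and 106 CPM and was not called. The ubiquitin-conjugating enzymes UBE2J1 and UBE2G2 fell in C6 (-0.46 and -0.47). RNF139 rose in C6 (0.62) and UFD1, a cofactor of VCP, rose in C3 (0.27). MAN1B1 was called lower in the mean comparison (-0.20; 0.0427) and in neither line alone, a call that was lost with DESeq2, with the replicate block, and with the positional shift removed (-0.08).

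Genes of protein entry, N-glycosylation and exit were compared between the lines as well. Of 19 genes of translocation and signal peptide cleavage, 6 fell and 0 rose in C3, where 11.9% of all genes tested were called lower and 12.4% higher. In C6, 5 rose and 1 fell, where 23.8% of all genes were higher and 22.8% lower. In C6 against C3, 13 were higher and 0 lower, where 25.1% of all genes were higher and 24.1% lower. The median difference between C6 and C3 was 0.205 for this list and 0.002 for all genes. Some of the 13 calls were lost without C3 replicate 1, C3 replicate 2 or C6 replicate 1. Each of those fits leaves 1 library in a group, which weakens the test for every gene. The translocon subunit SEC61A1 fell in C3 (log2 -0.20) and so did TRAM1 (-0.23), while SSR4, SPCS1 and SEC11A rose in C6 (0.45, 0.35 and 0.25). SPCS3, a signal peptidase subunit, fell in both lines (-0.47 and -0.56) with neighbours at -0.49 and -0.51. The signal recognition receptor gene SRPRA and the translocon-associated SSR2 were lower in C3 (-0.28 and -0.19) and higher in C6 (0.38 and 0.32) than scramble.

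Of 11 oligosaccharyltransferase genes, 6 were higher in C6 than in C3 and 0 lower (54.5% called, beside 49.2% of all genes tested, 25.1% higher and 24.1% lower), with a median difference of 0.154. DAD1 and OST4 rose in C6 (0.42 and 0.43), and STT3A, a catalytic subunit, fell in both lines (-0.25 and -0.16). OSTC fell in C3 (-0.47), MAGT1 fell in C6 (-0.20), and RPN2 was called in the mean comparison (0.14; edgeR adjusted p = 0.0393) and in neither line alone, a call lost with upper-quartile scaling, the replicate block and the positional shift removed (0.09). Of 17 genes of the COPII coat and cargo receptors, which carry proteins out of the ER and return escaped chaperones, 11 were higher in C6 than in C3 and 0 lower (64.7% called, beside the same 49.2%), with a median difference of 0.208. Some of the 11 calls were lost without C3 replicate 2, a fit that likewise weakens the test for every gene. SEC23A, SEC24D, SAR1B and PREB rose in C6 (0.50, 0.49, 0.36 and 0.33), SEC24A was not called, and LMAN1 fell in C3 (-0.26). KDELR3, a receptor that retrieves HSPA5 and other chaperones ending in KDEL, was at 27.7 ± 4.02 CPM in scramble, 17.9 ± 0.654 CPM in C3 and 45.6 ± 4.56 CPM in C6 (SD, n = 2).

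Part of these calls were lost when a library was left out. Such a fit has 1 library in a group, which weakens the test for every gene, so a loss does not single out a library. Among the named genes outside the 10, 17 were called in C3. The calls of CALR, CREB3, DNAJC10, LMAN1, SEC61A1, SEL1L, SSR2, STT3A, TRAM1 and UFD1 were lost when at least 1 library was left out. Of 33 calls in C6, those of CREB3L1, DDIT3, MAGT1, OST4, P4HB, SEC11A and STT3A were lost when at least 1 library was left out. With the positional shift removed, CALR and CREB3L2 lost their calls in C3 and MAGT1, MBTPS1, P4HB, SPCS3, SSR4, STT3A, TRIB3 and UGGT2 lost theirs in C6. MAGT1, like DNAJC3, was itself the middle gene of its stretch in C6, so the offset fixed its value there at 0.00. In the mean comparison, 16 of 29 calls were lost when at least 1 library was left out, 12 with the positional shift removed, and 29 with the knockdown libraries as 1 group. In C6 against C3, 9 of 34 calls were lost when at least 1 library was left out, and those of CREB3L2, DNAJC10, P4HB, SEC11A, SSR4, TRIB3 and UGGT2 with the positional shift removed, under which MBTPS1 changed sign (0.03).

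**Figure D4:**
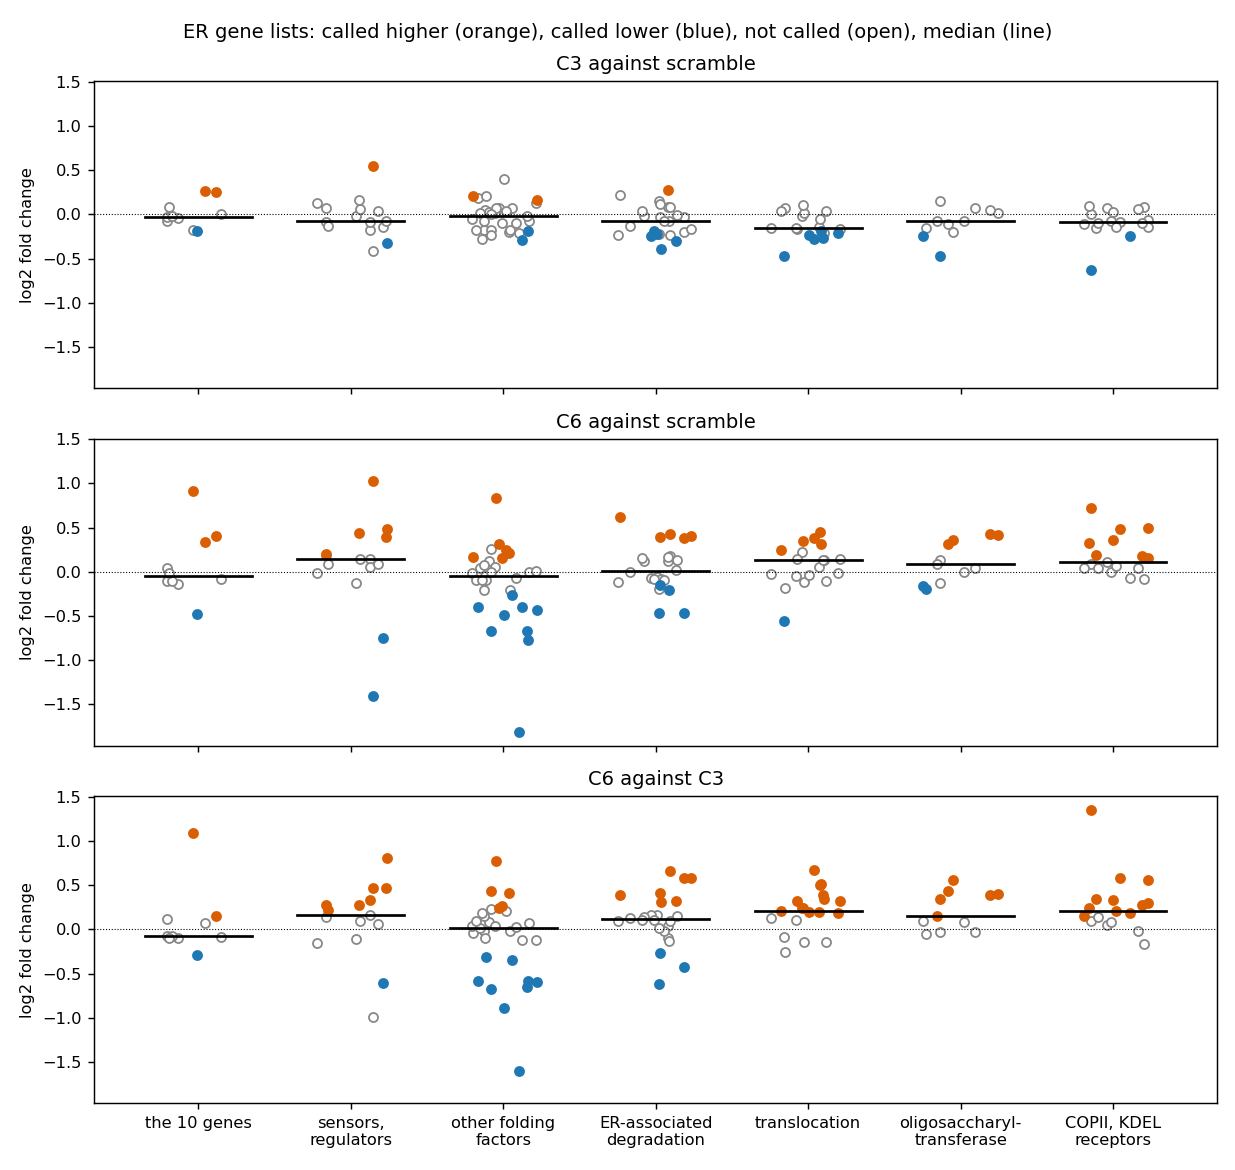
Log2 fold changes of the 10 genes and of the 6 lists of other ER genes in C3 against scramble, C6 against scramble and C6 against C3; each point is a gene, filled where called, and the line is the median of the list. In the comparison of C6 with C3, 13 of 19 translocation genes and 11 of 17 exit genes are called higher and 0 are called lower. Of all genes tested, 25.1% were called higher and 24.1% lower there.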

How the data were processed

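RNA from 6 SW620 libraries was sequenced as stranded, paired-end poly(A) libraries, per the labels' protocols. The authors deposited whole-number counts per gene, with no scaling, as the values show. StringTie 2.1.3b, HISAT2 2.1.0, Trimmomatic 0.38 and DESeq2 are named beside build hg38, per the submitters' processing notes. The sources used here give neither their order nor how reads were assigned to genes. Counts from StringTie may be estimates.

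Counts were tested with edgeR 4.0.16 (R 4.3.3): quasi-likelihood, robust, TMM scaling, filterByExpr, 3 groups of 2 libraries, 3 residual degrees of freedom, Benjamini-Hochberg adjustment over 13299 genes and a threshold of 0.05. Groups came from titles. Standard errors are the log2 fold change over the square root of F. The procedure was tested on simulated data. A floor of 3 counts equals 0.0967 to 0.115 CPM; this covers counting error only. Alternatives were other scalings, filters, the replicate block, fits of fewer groups, each library left out, the positional shift removed and DESeq2 1.42.0. Positions and promoters are RefSeq GRCh38.p14; 63 tested genes had no position.

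1 marker gene is not reported here. The 10 genes, the lists and the alternatives were chosen with earlier results of these data known. The genes named are the 10, DKC1, from each list up to 6 genes ranked by p in the mean comparison, and 14 partners of the 10 genes (ATF4, DDIT3, ERN1, EIF2AK3, ATF6, HYOU1, CALR, CANX, P4HB, MANF, CRELD2, SEL1L, SYVN1 and ERO1A).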

Additional observations from a re-analysis of the deposited data

Results flagged for a closer look

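These results differed between C6 and C3 by the test of the difference itself. That test was edgeR's quasi-likelihood contrast of C6 with C3, with a Benjamini-Hochberg adjusted p under 0.05. Values are the C6 effect minus the C3 effect on the log2 scale. Only the genes named in this report are given, and their lists held further calls. DKC1 differed by -1.10, and among the 10 genes DNAJB9 differed by 1.09, DNAJC3 by -0.29 and XBP1 by 0.15. Among UPR sensors and effectors the differences were 0.28 for ERN1, 0.33 for EIF2AK3, -0.61 for MBTPS1, 0.47 for PPP1R15A, 0.28 for TRIB3, 0.47 for CREB3L2 and 0.81 for CREB3. Among folding factors they were -0.59 for CALR, -0.65 for DNAJB11, -0.58 for DNAJC10, 0.27 for P4HB, -1.60 for ERO1B, 0.78 for FKBP14 and -0.67 for UGGT2. Among degradation genes they were 0.32 for EDEM1, -0.43 for UBE2J1, -0.62 for UBE2G2 and 0.39 for RNF139. Among translocation genes they were 0.19 for SEC61A1, 0.51 for SSR2, 0.50 for SSR4, 0.67 for SRPRA, 0.20 for TRAM1, 0.24 for SPCS1 and 0.20 for SEC11A. Among oligosaccharyltransferase genes they were 0.40 for DAD1, 0.39 for OST4 and 0.34 for OSTC. Among exit genes they were 0.56 for SEC23A, 0.58 for SEC24D, 0.33 for SAR1B, 0.24 for PREB, 0.19 for LMAN1 and 1.35 for KDELR3. With the positional shift removed, the calls of CREB3L2, DNAJC10 (-0.005), P4HB, SEC11A, SSR4, TRIB3 (0.013) and UGGT2 were lost. So was that of XBP1 (0.099, edgeR adjusted p = 0.204), and DNAJC3 and MBTPS1 turned to 0.142 and 0.033. The DNAJC3 value only mirrors its C3 value of -0.142, since the offset fixed its C6 value at 0.00. Of all genes tested, 49.2% were called in this comparison.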

How the results depend on the processing

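Over all alternatives, 500 of 560 values of the 10 genes kept their direction and side of the threshold. Another 34 reversed, and without a reversal 21 lost and 5 gained a call. Some reversed values also lost their calls, all with the positional shift removed: PDIA4 in C3 and in the mean, and DNAJC3 in C6 against C3. The cause of a change was not tested. With the knockdown libraries as 1 group, 80 of 13299 genes were called in place of 4382, and 0 of the 10 genes in either direction (XBP1 0.335, adjusted p = 0.184; DKC1 -1.557, 0.124). With the positional shift removed, member calls were 1 in the mean comparison (1 higher, 0 lower), 1 in C3 (1 higher, 0 lower) and 1 in C6 against C3 (1 higher, 0 lower). Over all genes tested, 3746, 3016 and 6110 were then called in these comparisons. In C6 against scramble, XBP1 and DNAJB9 were then called higher and PDIA4 was called lower (-0.145, edgeR adjusted p = 0.0466). Log2 fold changes that reversed with that shift removed were, against scramble in the mean, ATF6 0.032, EIF2AK3 0.020, P4HB -0.007, PDIA4 -0.096, PDIA6 0.006, SDF2L1 -0.034 and SPCS3 0.005. In C3 they were HERPUD1 0.006, PDIA3 -0.070, PDIA4 -0.046, SDF2L1 -0.009 and SPCS3 0.021, and in C6 HSPA5 -0.098, PDIA4 -0.145 and PDIA6 0.016. In C6 against C3 they were DNAJC3 0.142, HSP90B1 0.064, HSPA5 -0.005, MBTPS1 0.033, PDIA3 0.037, PDIA4 -0.099 and PDIA6 0.020. That of DNAJC3 was fixed by its C3 value, because the offset set its C6 value to 0.00. Upper-quartile scaling moved the share of higher calls from 50.5% to 37.2% in the mean, from 51.2% to 41.7% in C3 and from 51.1% to 41.6% in C6. With it, 7 of the 10 genes were called in C6 (4 lower), where 6309 of 13299 genes tested were (3685 lower). In C6 against C3 it called 1 of the 10 higher, where 3111 of all genes tested were higher. Under this scaling the mean turned to 0.00 for ERN1, -0.007 for ERO1A, -0.018 for P4HB and -0.011 for SDF2L1, HSPA5 in C6 to -0.021 and PDIA3 in C3 to -0.035. PDIA3 in C3, at 0.00, was -0.003 with DESeq2 and with RLE scaling, -0.004 with the 1 CPM filter and -0.007 with only the groups compared. DESeq2 called 2 of the 10 genes lower in C6, where it called 2348 lower over all genes. Deviations of same-numbered libraries did not go the same way in all groups. They correlated at -0.31 (scramble and C3), 0.241 (scramble and C6) and -0.288 (C3 and C6) over 10434 genes. Whether libraries were paired in another order than their numbers was not tested. With the replicate block, 0 of the 10 genes were lower in C3 and 1 was higher in C6 against C3. With each library left out in turn, calls over all genes were 1946 to 3267 in C3 (1946 without scramble replicate 2, 1947 without C3 replicate 2) and 2444 to 4041 in the mean (2444 without scramble replicate 2). Calls among the 10 genes were then 1 to 3 in C3 (1 to 2 higher, 0 to 1 lower), 1 to 2 lower in C6 and 1 to 2 higher in C6 against C3. Values near 0 that changed sign when a library was left out ranged in the mean from -0.029 to 0.002 for ATF6, -0.087 to 0.058 for EIF2AK3, -0.074 to 0.184 for ERN1, -0.040 to 0.008 for HSPA5, -0.011 to 0.077 for P4HB, -0.004 to 0.079 for SDF2L1 and -0.044 to 0.243 for SEC24A. They ranged in C3 from -0.061 to 0.015 for HERPUD1, -0.040 to 0.042 for PDIA3 and -0.073 to 0.006 for PDIA6, and in C6 from -0.028 to 0.005 for SDF2L1. Having 2 libraries a group limits the precision of every value.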
